A study of Homo sapiens with 25 samples.

Results

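The integrin and laminin genes were described here as 39 of 20037 protein-coding genes in the GRCh38.p14 gene table. They were chosen by symbol: ITGA or ITGB followed by a digit or letter, or LAMA, LAMB or LAMC followed by a digit. By role they comprise 4 collagen-binding α chains, 3 laminin-binding α chains, 4 RGD-binding α chains, the α4 and α9 chains (2), 7 leukocyte integrin chains, 6 other β chains, ITGBL1, 5 laminin α chains, 4 laminin β chains and 3 laminin γ chains. ITGBL1 matches the symbol rule, but it is a secreted β-like protein and not an integrin chain.

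Integrins are membrane receptors made of 1 α and 1 β chain, and the pairing decides which matrix protein is bound. Laminins are cross-shaped trimers of an α, a β and a γ chain, and they form the sheet of the basement membrane on which epithelia rest. Pluripotent stem cells are commonly cultured on laminin or vitronectin, which they bind through α6β1 and αV integrins, and endoderm lays down a basement membrane as it becomes an epithelium.

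The histone marks were profiled by chromatin immunoprecipitation with sequencing in the established stem cell line H1, which is human and embryonic, at 4 stages of directed differentiation, with no genetic change stated in the labels. Undifferentiated cells are called hESC and definitive endoderm hDE. Foregut endoderm was sampled at the anterior stage (hAFE) and then at the pharyngeal stage (hPFE). The agents used at each step are not named in the labels. H3K27ac marks active promoters and enhancers, H3K27me3 is the mark of Polycomb repression, and H3K4me2 marks promoters and enhancers whether or not they are active. Of 25 samples, 21 peak lists were used: H3K27ac had 2 libraries per stage, H3K27me3 had 2 except for 1 in hAFE, and H3K4me2 had 2 in hESC and hDE and 1 in hAFE and hPFE.

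The lists held 24871 to 111256 peaks for H3K27ac, 23457 to 76441 for H3K27me3 and 87357 to 116210 for H3K4me2. The hAFE H3K27ac lists were the shortest, with 42100 and 24871 peaks. Read depth is unknown, so a missing peak does not show a missing mark. The hESC libraries of H3K27ac and H3K27me3 were re-analysed from an earlier deposit, so for these marks batch and stage cannot be told apart when hESC is compared with a later stage. The word millipore stands in 3 file names of H3K27me3 lists, those of replicate 1 at every stage but hAFE, and the part of this difference in any H3K27me3 result was not tested. All cells came from 1 line, and the labels do not say whether libraries came from separate cultures. As a check of the stages, H3K27ac lay at the ends of 5, 1, 1 and 2 of 5 pluripotency genes in hESC, hDE, hAFE and hPFE, at 0, 7, 1 and 1 of 7 definitive endoderm genes, and at 0, 0, 2 and 3 of 7 foregut genes. None of 6 blood and endothelial genes (PTPRC, CD34, PECAM1, CDH5, SPI1 and TAL1) carried H3K27ac in every library of any stage. Of 5 mesenchyme genes PDGFRB carried it in hDE, and of 4 neural genes TUBB3 carried it in hDE, hAFE and hPFE.

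A gene counts as marked by a histone mark at a stage if a peak touched the 1 kb on either side of its start or end in all libraries. It counts as unmarked if this held in no library. A gain or a loss was a passage between these states. Peaks of different libraries need not overlap for a call. With 2 libraries against 2, an exact permutation test cannot give a p below 0.333, so the calls are descriptions without p-values. Each peak has a fold enrichment over input that is the authors' own value for its list. It is given below for the strongest peak at a gene end, replicate 1 before replicate 2, and ranks a peak within its own list only. Unless a position or the gene body is named, peaks and marks given below are those at a gene end. The contrasts between stages share libraries and are not independent of each other.

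H3K27ac marked fewer of the integrin and laminin genes than of all genes at each stage, and H3K27me3 marked more of them. H3K27ac was present at 8, 15, 11 and 14 of 39 members in hESC, hDE, hAFE and hPFE (20.5%, 38.5%, 28.2% and 35.9%), against 42.9%, 54.0%, 34.2% and 50.2% of all protein-coding genes. H3K27me3 was present at 16, 12, 12 and 12 members (41.0% in hESC and 30.8% at each later stage), against 19.2%, 13.4%, 15.5% and 12.7% of all genes. For H3K4me2 the counts were 27, 24, 27 and 28 members (69.2%, 61.5%, 69.2% and 71.8%), close to the 72.3%, 68.0%, 70.2% and 70.1% of all genes. These differences between the members and all genes were not tested.

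**Figure D1:**
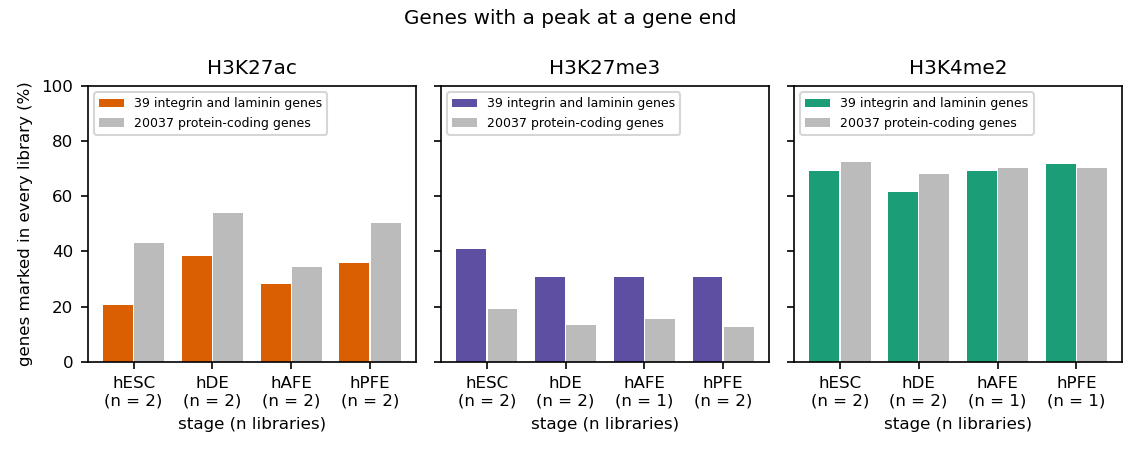
Percentage of genes marked in every library of a stage (vertical axis), for the 39 integrin and laminin genes and for all 20037 protein-coding genes, by histone mark and stage. The members lie below all genes for H3K27ac, above them for H3K27me3, and near them for H3K4me2; in hESC the H3K27ac shares are 20.5% and 42.9%.

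Few members changed H3K27ac state between stages, and the hAFE lists, against which losses from hDE were called, were the shortest. In hDE against hESC, 4 of 24 members without H3K27ac gained it (ITGA3, ITGA10, ITGB3 and ITGB5), against 14.6% of all genes that could gain it, and 1 of 8 with it lost it (ITGA1), against 2.76%. In hAFE against hDE, 1 of 19 gained H3K27ac (ITGB6), against 1.16% of all genes, and 3 of 15 lost it (ITGA10, ITGB3 and ITGB5), against 12.5%. In hPFE against hAFE, ITGB4 was the 1 gain among 25 members, against 7.71%, and 0 of 11 lost the mark, against 0.539%. Over the whole course, in hPFE against hESC, 3 of 24 gained H3K27ac (ITGA3, ITGB4 and ITGB6), against 11.4%, and 0 of 8 lost it, against 3.81%. The shares lay near those of all genes except where they rest on 1 member. Each of these single-gene H3K27ac calls ended when only peaks with a −log10 p of 5 or more were kept.

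H3K27me3 changed at laminin chains and at α chains. In hDE against hESC, 2 of 23 members gained it (ITGA3 and ITGA6), against 0.868% of all genes, and 3 of 16 lost it (ITGA5, LAMA1 and LAMA4), against 22.2%. In hPFE against hDE, 2 of 23 gained it (LAMA2 and LAMA4), against 2.05%, and 3 of 12 lost it (ITGA2, ITGA3 and LAMB1), against 16.3%. In hPFE against hESC, 2 of 23 gained it (ITGA6 and LAMA2), against 1.55%, and 5 of 16 lost it (ITGA2, ITGA5, ITGAD, LAMA1 and LAMB1), against 32.4%. The loss shares lay on either side of those of all genes, and each gain share rests on a pair of genes. H3K4me2 was gained by 1 of 8 members in hDE against hESC (LAMB4), against 1.87% of all genes, and lost by 1 of 27 (ITGAX), against 2.82%.

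**Figure D2:**
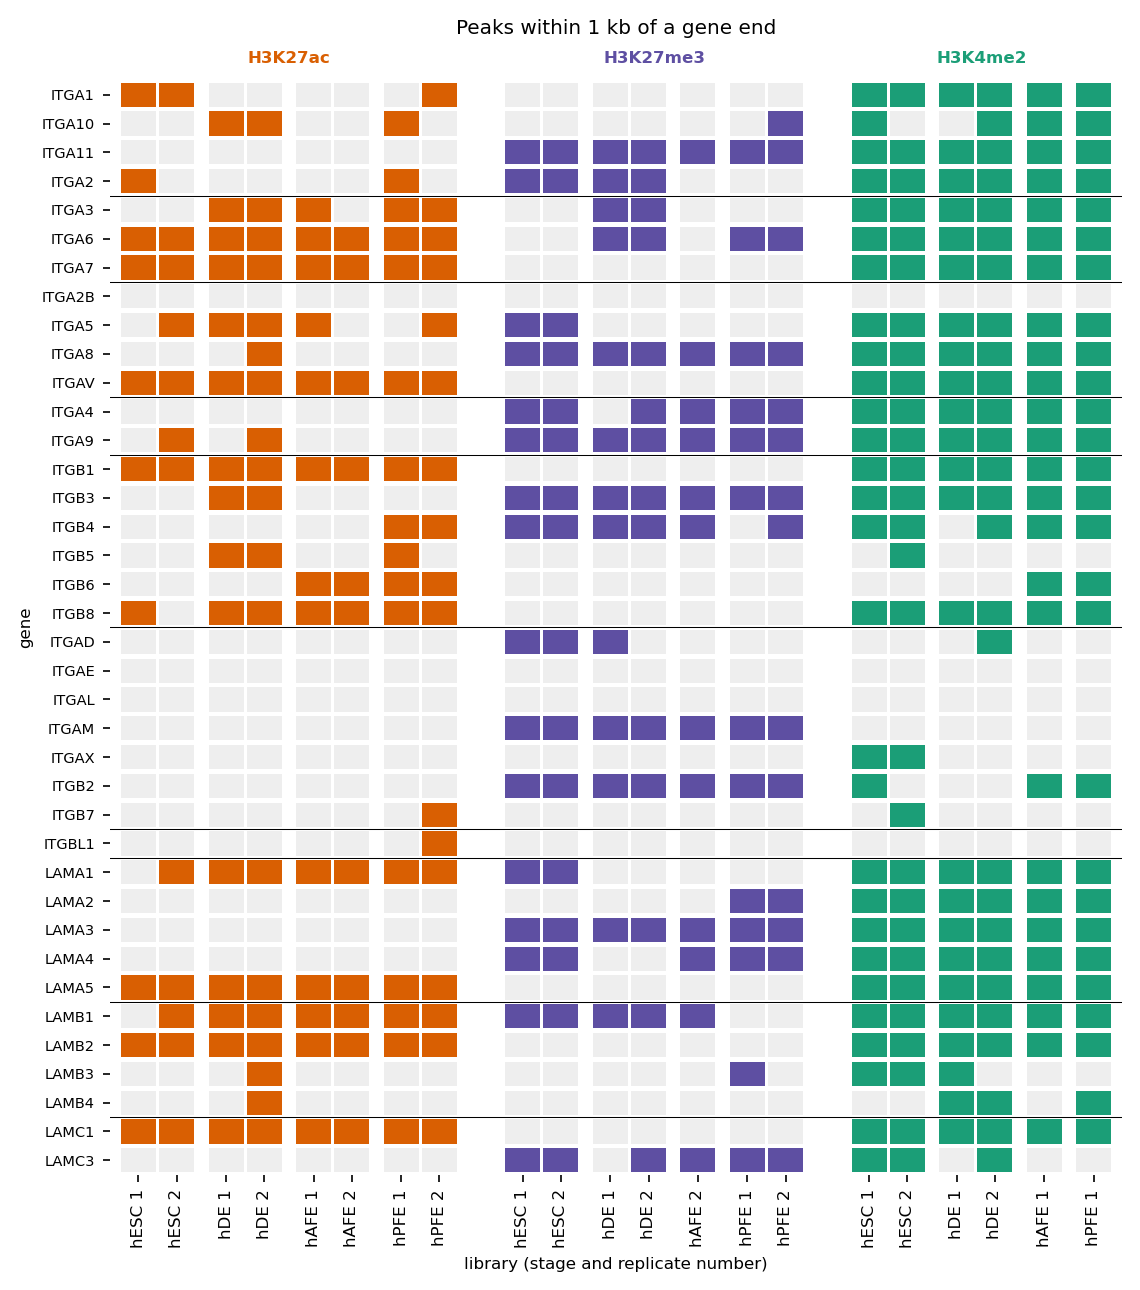
Presence of a peak within 1 kb of either gene end in each of 21 libraries (columns, grouped by mark and ordered by stage), for 38 members ordered by role (rows). Filled cells run through every H3K27ac column for 7 members, among them ITGB1, ITGAV and LAMC1, while ITGA2B, ITGAE and ITGAL are empty in all columns.

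Promoter sequences are shown for 5 members that gained H3K27ac or lost H3K27me3 and that had the highest fold enrichment, used across lists for this choice only, among those with an entry in the RefSeq promoter table (GRCh38.p14), which held 27 of the 39 members. Each line gives the 250 bases before the start in that table, 5′ to 3′ on the gene's strand. For LAMA4 this start lies 418 bp inside the annotated gene, and so do the bases shown. They lie at chr7:108003162-108003411 (LAMB1, minus strand), chr5:52989102-52989351 (ITGA2, plus), chr2:160200273-160200522 (ITGB6, minus), chr6:112254568-112254817 (LAMA4, minus) and chr12:54419267-54419516 (ITGA5, minus). Capitals mark matches on either strand to the GC box (GGGCGG), the TEAD motif (GGAATG) or the GATA motif (AGATAA).
LAMB1: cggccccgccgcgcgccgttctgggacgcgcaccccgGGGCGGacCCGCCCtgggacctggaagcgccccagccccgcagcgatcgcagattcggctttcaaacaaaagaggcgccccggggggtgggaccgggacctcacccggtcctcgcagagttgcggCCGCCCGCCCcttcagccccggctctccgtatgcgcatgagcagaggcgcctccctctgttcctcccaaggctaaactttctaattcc
ITGA2: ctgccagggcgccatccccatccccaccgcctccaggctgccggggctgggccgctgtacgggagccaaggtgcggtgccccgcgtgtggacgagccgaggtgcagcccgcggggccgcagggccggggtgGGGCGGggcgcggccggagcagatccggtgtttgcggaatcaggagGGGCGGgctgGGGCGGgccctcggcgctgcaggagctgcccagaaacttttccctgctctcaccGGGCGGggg
ITGB6: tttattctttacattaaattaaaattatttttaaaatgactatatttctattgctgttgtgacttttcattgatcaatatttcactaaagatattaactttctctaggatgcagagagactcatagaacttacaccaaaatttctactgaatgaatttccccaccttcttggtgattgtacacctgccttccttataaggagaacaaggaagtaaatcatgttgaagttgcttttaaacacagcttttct
LAMA4: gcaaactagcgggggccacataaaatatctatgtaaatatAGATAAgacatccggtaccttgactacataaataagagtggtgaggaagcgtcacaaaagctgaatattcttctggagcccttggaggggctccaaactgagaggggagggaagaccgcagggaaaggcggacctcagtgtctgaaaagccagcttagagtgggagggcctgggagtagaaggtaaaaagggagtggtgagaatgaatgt
ITGA5: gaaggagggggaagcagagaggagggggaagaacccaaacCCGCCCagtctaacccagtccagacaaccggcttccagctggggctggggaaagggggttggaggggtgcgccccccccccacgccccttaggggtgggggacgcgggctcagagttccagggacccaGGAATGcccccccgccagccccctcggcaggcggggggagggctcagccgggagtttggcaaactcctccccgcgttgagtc

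The promoters that were shown differ in their CG content. LAMB1 has 28 CG dinucleotides and 4 GC boxes, of which the last pair overlap, and ITGA2 has 26 CG dinucleotides and 4 GC boxes. ITGA5 has 12 CG dinucleotides with 1 GC box and 1 TEAD match, LAMA4 has 5 with 1 GATA match, and ITGB6 has 0 and no match. Of the 6 motifs searched, the GC box was held by 14 of 27 member promoters and 56.0% of 15843 protein-coding promoters. TEAD was held by 4 members and 10.1% of promoters, GATA by 1 (LAMA4) and 6.84%, the AP-1 motif TGANTCA by 1 (LAMA3) and 5.04%, and the SOX motif ATTGTT by 1 (ITGB7) and 6.14%. The forkhead motif TGTTTAC was held by 0 members and 2.25% of promoters.

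CG content was set beside H3K4me2, the CG before the start in the promoter table and the mark at either gene end. All H3K4me2 peaks of ITGA10, ITGB7 and LAMB4 lay at the 3′ end, and the promoter entry of LAMA3 lies away from the end that was marked. The 17 members with H3K4me2 at an end in all 6 libraries had a median of 19 CG dinucleotides in 250 bases (range 5 to 32), the 6 with it in 1 to 5 libraries had a median of 1.5 (0 to 9), and the 4 with it in none had a median of 4 (2 to 6). Over all protein-coding promoters the medians were 21, 7 and 3 for the same classes (10536, 2413 and 2894 genes). In both, the fully marked class had the highest median, and among the members ITGB1, LAMA5 and LAMC1 had the highest count, 32 each.

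**Figure D3:**
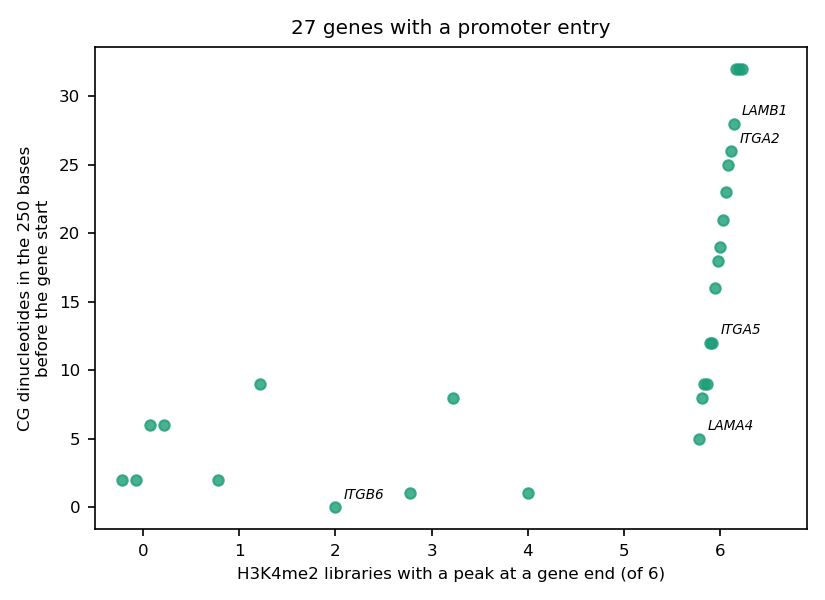
CG dinucleotides in the 250 bases before the start (vertical axis) against the number of H3K4me2 libraries, of 6, with a peak at a gene end (horizontal axis, points spread sideways to avoid overlap), for the 27 members with a promoter entry. Members marked in all 6 libraries have 5 to 32 CG dinucleotides, and the 10 others have 0 to 9.

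Among the β chains, ITGB1, the common partner of most α chains in epithelia and stem cells, had the strongest H3K27ac of these chains in every list. Its fold enrichment was 10.7 and 5.98 in hESC, 15.6 and 16.6 in hDE, 12.3 and 8.91 in hAFE, and 15.8 and 25.6 in hPFE. It had H3K4me2 in all 6 libraries (6.89 to 9.61) and H3K27me3 in none of 7. ITGB8, which pairs with αV to bind latent TGF-β, had 2.91 and no peak in hESC, 3.03 and 6.99 in hDE, 7.49 and 4.17 in hAFE, and 10.2 and 19.0 in hPFE. The hESC peak of ITGB8 lay at its 3′ end and those of the later stages at its 5′ end, so with the 5′ end alone ITGB8 had H3K27ac in no hESC library and in every later one. It too had no H3K27me3 in any library.

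ITGB6, the epithelial β6 chain that also pairs with αV, was the member that gained H3K27ac in hAFE. It had no H3K27ac peak in the 4 hESC and hDE libraries, 4.88 and 3.16 in hAFE, and 1.94 and 3.42 in hPFE. Its H3K4me2 followed the same stages, with no peak in the 4 hESC and hDE libraries, 3.17 in hAFE and 3.16 in hPFE, and no library had H3K27me3. All hAFE and hPFE libraries of H3K27ac and H3K4me2 thus had a peak, and none of the hESC and hDE libraries did. The H3K27ac call in hAFE against hDE ended with a window of 2.5 kb or an overlap of at least 200 bp. Inside ITGB6 no H3K27ac peak of hAFE replicate 1 overlapped one of replicate 2.

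ITGB4, the β4 chain of hemidesmosomes, which anchor epithelia to laminin, had H3K27ac only in hPFE (3.28 and 4.86). Its H3K27me3 was 4.27 and 5.24 in hESC, 5.06 and 5.72 in hDE, 5.15 in hAFE, and absent and 3.69 in hPFE. ITGB4 thus had H3K27me3 in every library before hPFE and in 1 of 2 there. The hPFE peaks of these marks come from separate libraries. ITGB3, the β chain of the vitronectin receptor αVβ3, had H3K27ac only in hDE (3.37 and 2.89), with H3K27me3 in all 7 libraries (2.79 to 8.45) and H3K4me2 in all 6. ITGB5, another partner of αV, had 2.16 and 2.91 in hDE, 3.26 and no peak in hPFE, and none in hESC and hAFE. The hDE peaks of ITGB5 lay at opposite ends of the gene, one in each library, so its call ended when only the 5′ end was used.

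Among the α chains that bind laminin, ITGA6 and ITGA7 carried H3K27ac in all 8 libraries. ITGA6, the α6 chain of the main laminin receptor of stem cells, had 4.31 and 4.10 in hESC, 4.64 and 6.21 in hDE, 6.08 and 3.73 in hAFE, and 3.82 and 2.57 in hPFE. H3K27me3 was absent from ITGA6 in hESC and hAFE, and was 3.43 and 4.35 in hDE and 3.18 and 3.16 in hPFE, so both marks were listed at 2 of 4 stages. Their strongest peaks did not overlap at these stages: those of H3K27me3 lay before the annotated start and those of H3K27ac inside the gene. The H3K27me3 gain in hDE ended with a 200 bp overlap and that in hPFE with −log10 p of 5 or more. ITGA7 had 6.54 to 11.9 over its 8 libraries and no H3K27me3. BLOC1S1, a neighbouring gene, has an end within the same window as ITGA7, and the peaks of the 2 genes cannot be told apart.

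ITGA3, the α3 chain that binds laminin in epithelia, had no H3K27ac in hESC, 3.68 and 3.25 in hDE, 4.25 and no peak in hAFE, and 5.45 and 3.06 in hPFE. The strongest hPFE peaks lay apart, at chr17:50055441-50055713 and chr17:50056088-50056227, and inside the gene the hPFE libraries shared none. An end of the non-coding gene PICART1 lies in the same window. The other marks of ITGA3 were as follows. Its H3K27me3 was present in hDE alone (2.97 and 6.66), and its H3K4me2 was in all 6 libraries (4.83 to 9.58). The H3K27me3 call of ITGA3 ended with −log10 p of 5 or more, with a 2.5 kb window and with a 200 bp overlap.

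The RGD-binding α chains bind fibronectin and vitronectin. ITGAV, the αV chain, had H3K27ac in every library, at 3.62 and 3.90 in hESC, 12.4 and 11.9 in hDE, 5.94 and 4.21 in hAFE, and 7.46 and 6.94 in hPFE, and no H3K27me3. ITGA5, the fibronectin receptor chain, had no peak and 3.27 in hESC, 9.48 and 9.61 in hDE, 5.04 and no peak in hAFE, and no peak and 4.29 in hPFE. H3K27me3 at ITGA5 was 4.01 and 4.39 in hESC and absent from all 5 later libraries. The hDE libraries were thus the only pair with H3K27ac in both. The loss of H3K27me3 in hDE against hESC was kept under all 9 alternatives, though those that left a library out could not end it. The loss in hPFE against hESC ended with a window of 2.5 kb. ITGA8, the α8 chain known from kidney development, had H3K27me3 in all 7 libraries (4.31 to 11.5), H3K4me2 in all 6, and H3K27ac in 1 hDE library (2.59). ITGA2B, the platelet chain αIIb, had no peak of any mark at its ends.

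Of the collagen-binding α chains, ITGA2 and ITGA1 lie 30.1 kb apart on chromosome 5 and differed in mark. H3K27me3 at ITGA2 was 5.07 and 8.04 in hESC, 4.66 and 5.62 in hDE, and absent from hAFE and hPFE; its H3K27ac was listed in 1 hESC library (4.52) and 1 hPFE library (3.16). Both hESC and hDE pairs thus had H3K27me3, and none of the 3 later libraries did, but with a window of 2.5 kb both loss calls ended. ITGA1 had no H3K27me3, with H3K27ac of 3.48 and 2.59 in hESC and 2.54 in 1 hPFE library, but the gene PELO shares its start. ITGA11, the fibrillar collagen receptor chain of fibroblasts, had H3K27me3 in all 7 libraries (4.99 to 11.3) and no H3K27ac. ITGA10, a cartilage collagen receptor chain, had H3K27ac of 3.22 and 2.93 in hDE and 5.33 in 1 hPFE library, all at its 3′ end, so its call ended when only the 5′ end was used.

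The α4 and α9 chains carried H3K27me3 and H3K4me2 together at most stages. ITGA4 had H3K27me3 of 7.83 and 11.5 in hESC, no peak and 3.52 in hDE, 8.71 in hAFE, and 3.23 and 5.12 in hPFE, and no H3K27ac. With the window set on its promoter entry, 181 bp inside the annotated start, every hDE library had H3K27me3 at ITGA4. ITGA9 had H3K27me3 in all 7 libraries (2.73 to 9.41), and H3K27ac in 1 hESC and 1 hDE library (3.12 and 3.60). Both thus lacked H3K27ac in at least 1 library of every stage, and both had H3K4me2 in all 6 libraries.

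Of the leukocyte chains, 0 of 7 had H3K27ac at a gene end in every library of any stage. Of these, ITGAE, the αE chain of lymphocytes in epithelia, and ITGAL, the αL chain of LFA-1, had no peak of any mark at a gene end. With ITGA2B they make 3 of 39 members with none there, against 12.8% of all genes. Inside its body ITGAE had 3 and 6 H3K27ac regions in hESC, 3 and 4 in hDE, 2 and 0 in hAFE, and 6 and 10 in hPFE. Whether these regions belong to another gene lying inside ITGAE was not examined. ITGB2, the common leukocyte β2 chain, had H3K27me3 in all 7 libraries (2.67 to 16.8). ITGAM, the αM chain of myeloid cells, did too (2.15 to 5.45), but its peaks lay at the 3′ end and none lay at the 5′ end. ITGAD had H3K27me3 of 3.53 and 3.77 in hESC and 3.26 in 1 hDE library, and ITGAX had H3K4me2 of 3.05 and 3.98 in hESC only. The ITGAX peaks lay at opposite ends of the gene, one in each library, and the loss call ended with −log10 p of 5 or more, equal list lengths or a 200 bp overlap; the ITGAD loss ended with the first and last of these and with a 2.5 kb window. ITGB7 had H3K27ac in 1 hPFE library (3.34) and H3K4me2 in 1 hESC library (3.77). ITGBL1 had 1 peak at a gene end, H3K27ac in an hPFE library (3.85).

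Among the laminin α chains, LAMA5 and LAMA1 carried H3K27ac at a gene end and the other 3 had none there in any library. Their bodies did hold H3K27ac regions: in the deposited hDE lists, 9 and 9 in LAMA2, 8 and 8 in LAMA3, and 3 and 3 in LAMA4. LAMA5, the α5 chain of mature epithelial and stem cell laminins, had 7.03 and 6.33 in hESC, 7.05 and 8.29 in hDE, 8.98 and 4.51 in hAFE, and 9.05 and 4.86 in hPFE. LAMA1, the α1 chain of the first embryonic basement membranes, had no peak and 5.22 in hESC, 7.07 and 6.13 in hDE, 5.56 and 2.91 in hAFE, and 4.70 and 3.48 in hPFE. H3K27me3 at LAMA1 was 3.46 and 3.34 in hESC and absent from the 5 later libraries, a loss that ended with −log10 p of 5 or more, with equal list lengths and with a 200 bp overlap. LAMA1 was thus marked by H3K27ac at each of the 3 later stages.

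The remaining laminin α chains carried H3K27me3 at some stage. LAMA2, the α2 chain of muscle laminin, had no H3K27me3 in the 5 libraries before hPFE and 4.86 and 4.36 in hPFE. This gain was kept under all 9 alternatives, though those that left a library out could not end it. LAMA4, the α4 chain of vessel laminin, had H3K27me3 of 3.45 and 4.87 in hESC, none in hDE, 4.10 in hAFE, and 3.70 and 4.70 in hPFE. LAMA4 thus lacked the mark in both hDE libraries only; its loss in hDE ended with −log10 p of 5 or more and its gain in hPFE with a 200 bp overlap. LAMA3, the α3 chain of hemidesmosomal laminin, had H3K27me3 in all 7 libraries (4.05 to 7.78) at the annotated start. The RefSeq promoter entry for LAMA3 lies 183567 bp further into the gene, and there no library had H3K27me3 or H3K27ac.

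The laminin β and γ chains include the partners of most laminins. LAMC1, the γ1 chain of nearly all of them, had H3K27ac of 6.15 and 6.69 in hESC, 7.19 and 8.83 in hDE, 10.5 and 2.44 in hAFE, and 8.05 and 8.00 in hPFE. LAMB2, the β2 chain, had 5.94 and 5.03 in hESC, 7.10 and 6.99 in hDE, 6.36 and 4.30 in hAFE, and 7.96 and 7.72 in hPFE, with peaks at both ends and an end of USP19 in the window of its 3′ end. Neither had H3K27me3 in any library. LAMC3 had no H3K27ac and had H3K27me3 in every library but 1 of hDE (3.50 to 9.28). LAMB3, the β3 chain of hemidesmosomal laminin, had H3K27ac in 1 hDE library (4.41) and H3K27me3 in 1 hPFE library (2.40). LAMB4 had H3K27ac in 1 hDE library (3.25), and H3K4me2 in hDE (2.93 and 3.02) and hPFE (3.00), all at its 3′ end, so its H3K4me2 call ended when only the 5′ end was used.

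LAMB1, the β1 chain that joins γ1 in most laminins, carried H3K27me3 in both hESC libraries of that mark and H3K27ac in 1 of 2 H3K27ac libraries. In hPFE it carried H3K27ac in both libraries of that mark and H3K27me3 in neither of the H3K27me3 libraries. H3K27me3 at its ends was 6.95 and 10.5 in hESC, 4.20 and 5.92 in hDE, 3.00 in hAFE and absent from both hPFE libraries. H3K27ac was absent and 2.59 in hESC, 4.64 and 8.09 in hDE, 8.96 and 6.60 in hAFE, and 6.59 and 3.04 in hPFE, where the value of replicate 2 belongs to a peak at the 3′ end. H3K27me3 was thus in every library before hPFE, H3K27ac was in every library after hESC, and H3K4me2 was in all 6 (6.60 to 13.5). The loss of H3K27me3 in hPFE was kept under all 9 alternatives, against hESC and against hDE, though those that left a library out could not end it.

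The strongest peaks of H3K27me3 and H3K27ac at LAMB1 overlapped in hESC and not in hDE. In hESC the H3K27me3 peaks spanned the start, at chr7:108001598-108003218 and chr7:108001564-108005701, and the H3K27ac peak of replicate 2 lay inside them. In hDE they lay upstream of it on the minus strand, at chr7:108003674-108004360 and chr7:108003671-108004616, and in hAFE at chr7:108003920-108004079. The H3K27ac peaks of hDE reached chr7:108002766-108003159 and chr7:108002721-108003163, almost wholly inside the gene. Weaker peaks did overlap: in hDE replicate 2 an H3K27me3 peak 0.986 to 1.17 kb inside the gene (2.65) lay within H3K27ac of that stage at 0.629 to 1.36 kb (3.47). LAMB4 lies 8.50 kb upstream of LAMB1 and had no H3K27me3 at its ends in any library.

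**Figure D4:**
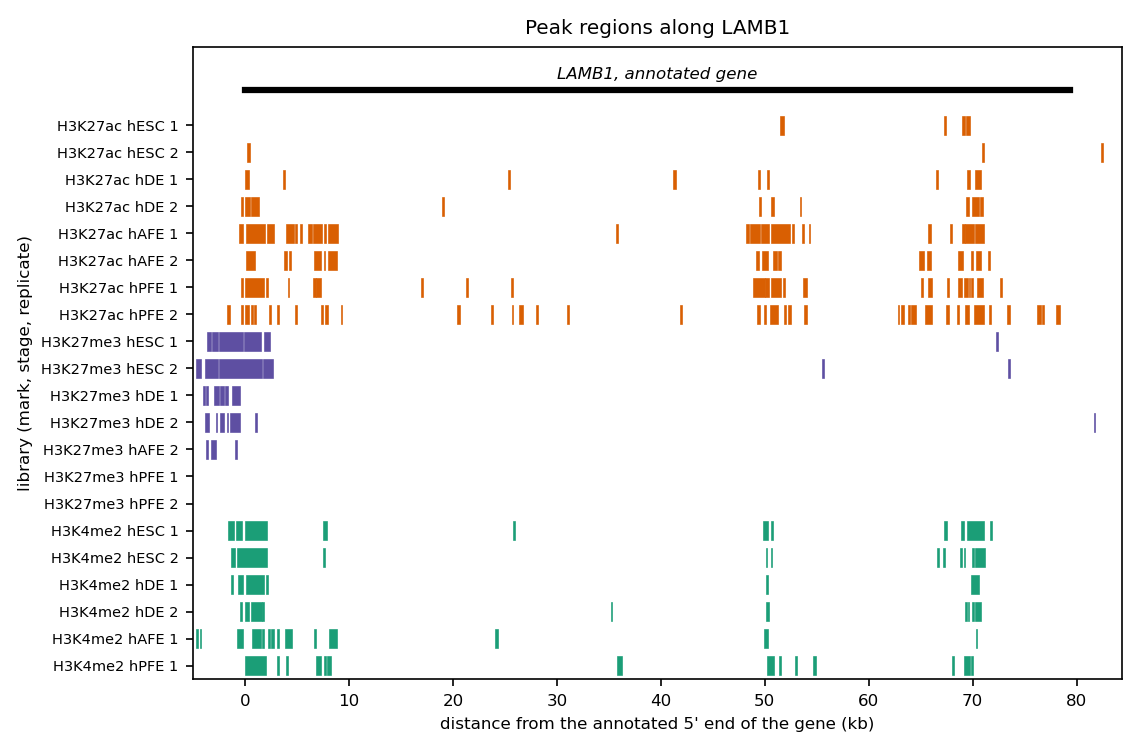
Peaks of the 3 marks along LAMB1 by library, with distance from its 5′ end in kb on the horizontal axis and libraries ordered by stage on the vertical axis. H3K27ac regions are few in hESC (4 and 2) and many in hAFE (22 and 16) and hPFE (22 and 36), while H3K27me3 near the start is absent in hPFE.

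Within gene bodies, LAMB1 had the most H3K27ac regions of any member, summed over the 8 libraries. A region is a merged peak with at least 1 bp in the gene. Other genes can lie within a member, and regions were not assigned between them. LAMB1 had 4 and 2 regions in hESC, 9 and 9 in hDE, 22 and 16 in hAFE, and 22 and 36 in hPFE. They covered 1168 and 359 bp in hESC, 2347 and 3446 bp in hDE, 13236 and 7038 bp in hAFE, and 8948 and 10335 bp in hPFE. Both libraries of each later stage had more regions than either of the stage before, except that an hPFE library equalled the higher hAFE one. When all H3K27ac lists were shortened to 24831 regions, LAMB1 had 0 and 0 in hESC, 0 and 1 in hDE, 11 and 16 in hAFE, and 8 and 6 in hPFE, so the order of hAFE and hPFE turned round.

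The LAMB1 regions lay in groups along the gene, described after they had been seen. Between 3 and 10 kb from the 5′ end there were 0 and 0 regions in hESC, 1 and 0 in hDE, 7 and 5 in hAFE, and 3 and 5 in hPFE. Between 45 and 60 kb there were 1 and 0 in hESC, 2 and 3 in hDE, 7 and 4 in hAFE, and 5 and 6 in hPFE. Between 60 and 80 kb regions were present at every stage, 3 and 1 in hESC, 3 and 3 in hDE, 5 and 6 in hAFE, and 9 and 14 in hPFE. Stretches covered by a region in both libraries of a stage were also counted, and 1 region can hold more than 1 stretch. LAMB1 had 0, 5, 14 and 16 such stretches at the 4 stages. Of those in hDE, hAFE and hPFE, 3, 11 and 12 met no hESC region. An example between 3 and 10 kb is the stretch chr7:107995815-107996551, 6.61 kb from the 5′ end. Its fold enrichments were 7.03 and 8.42 in hAFE, with a peak in 1 hPFE library and in none of hESC or hDE.

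In the deposited lists LAMA1, ITGB3 and ITGB5 were among the members with more body regions in hDE than in hESC or in hAFE, which has the shortest lists. The others were ITGA9, ITGA10, ITGA11, ITGAD, ITGB1, LAMA3 and LAMA4. LAMA1 had 3 and 5 regions in hESC, 15 and 23 in hDE, 4 and 3 in hAFE, and 18 and 26 in hPFE. Its hDE libraries shared 15 stretches, some of them pieces of the same region, and 14 of these met no hESC region. ITGB3 had 1 and 1 in hESC, 8 and 8 in hDE, 2 and 0 in hAFE, and 0 and 5 in hPFE. The strongest shared LAMA1 stretch in hDE was chr18:7068809-7070113 (11.4 and 10.5), and that of ITGB3 was chr17:47310596-47311294 (9.28 and 11.3). ITGB5 had 18 and 10 in hESC, 26 and 25 in hDE, 7 and 3 in hAFE, and 11 and 9 in hPFE, although its ends were marked in hDE only. With equal list lengths LAMA1 had 0 and 1 in hESC, 4 and 4 in hDE, 1 and 3 in hAFE, and 6 and 0 in hPFE. ITGB3 then had 0 and 0 in hESC, 2 and 3 in hDE, 1 and 0 in hAFE, and 0 and 0 in hPFE, so both genes were still higher in hDE than in hESC and hAFE. So were ITGA9 and ITGAD, each with 1 and 1 in hDE and 0 and 0 in hESC and in hAFE. ITGB5 then had 5 and 3 in hESC, 7 and 3 in hDE, and 3 and 3 in hAFE, and its hDE counts no longer stood above the others.

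ITGA6 and ITGB1 differed in their counts of body regions over the course. ITGA6 had 15 and 8 in hESC, 8 and 8 in hDE, 3 and 3 in hAFE, and 4 and 3 in hPFE, and it was the 1 of 33 members with fewer in both hPFE libraries than in either hESC library, against 8.83% of all genes. ITGB1 had 6 and 9 in hESC, 11 and 13 in hDE, 5 and 1 in hAFE, and 19 and 14 in hPFE, so that both hPFE libraries were above all others. With equal list lengths the counts of ITGB1 were 6 and 5 in hPFE and 5 and 1 in hDE, and replicate 2 of hPFE no longer exceeded replicate 1 of hDE. ITGAL and LAMB3 had 0 in all 8 libraries, and 11 members had at most 3 in any library: ITGA2B, ITGA3, ITGA4, ITGA10, ITGAM, ITGAX, ITGB2, ITGB4, ITGB7, LAMB2 and LAMC3.

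**Figure D5:**
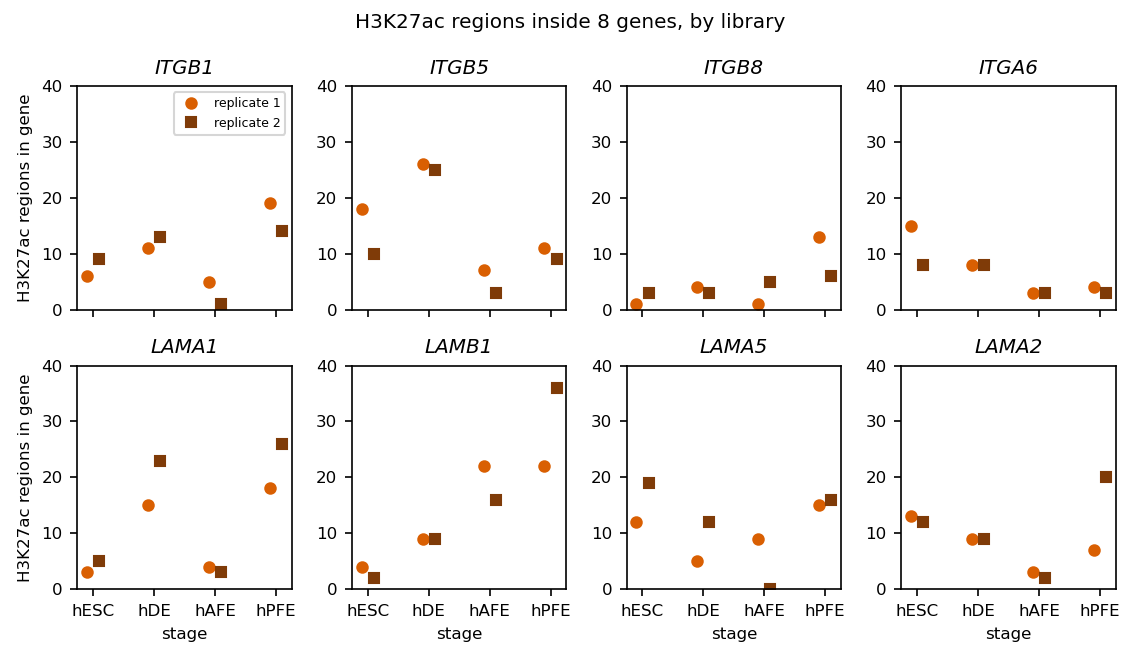
Number of H3K27ac regions in the gene body in each of 8 libraries, by stage, for 8 members. LAMB1 has 2 to 4 regions in hESC and 16 to 36 in hAFE and hPFE. LAMA1, ITGB1 and ITGB5 are higher in hDE than in hESC and hAFE in these lists as deposited. With equal list lengths this did not hold for ITGB1 or ITGB5.

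The count over members followed the length of the lists. A body region in every library was present in 24, 28, 15 and 27 of 39 members in hESC, hDE, hAFE and hPFE, against 51.7%, 62.9%, 36.0% and 59.8% of all genes. More regions in both libraries of hDE than in either of hESC were found in 13 of 36 members, against 29.7% of all genes with a region, and fewer in 1 (LAMA2), against 10.4%. In hAFE against hDE, 2 of 36 had more (ITGB6 and LAMB1), against 2.08%, and 17 had fewer, against 45.8%. In hPFE against hAFE, 20 of 33 had more, against 41.0%, and 0 had fewer, against 0.942%. In hPFE against hESC, 13 of 33 had more, against 25.0%. With equal list lengths the counts of members with more were 9 of 23 (16.0% of all genes), 4 of 24 (13.8%), 2 of 25 (10.4%) and 6 of 25 (15.1%) in the same order. The counts with fewer were then 3 of 23 (14.6%), 4 of 24 (14.3%), 4 of 25 (7.06%) and 2 of 25 (10.8%). LAMB1 and ITGB6 were again among those with more in hAFE than in hDE. A longer gene can hold more regions, and the members, from 11.9 kb (LAMB2) to 633 kb (LAMA2), were not matched to other genes by length. The part of gene length in these shares was not tested.

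The other adhesion genes were read from a list of 44 matrix ligands, laminin receptors and integrin adaptors, chosen with earlier results of these data known. H3K27ac in hDE against hESC was gained by 5 of 11 and lost by 1 of 20 of them, against 14.6% and 2.76% of all genes. TNC, the matrix protein tenascin-C, had 10.2 and 10.4 in hDE and no peak in hESC, hAFE or hPFE. COL4A3 and COL4A4, which encode basement membrane collagen chains, share 1 peak at their common start, of 4.60 and 5.77 in hDE. Genes that share a peak are each counted, so this peak enters the counts of gains and losses for both genes. CD151, a tetraspanin partner of laminin-binding integrins, had 4.29 and 4.33 in hDE, 4.24 and no peak in hAFE, and 6.69 and 5.72 in hPFE, and no peak in hESC. FBN1, the RGD-bearing fibrillin-1, had no peak in hESC, 3.52 and 4.89 in hDE, 2.86 in 1 hAFE library and 4.29 in 1 hPFE library.

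BCAM, a laminin receptor outside the integrins, was the 1 loss and had 4.80 and 4.46 in hESC, no peak in hDE, 7.89 and 4.60 in hAFE, and 11.1 and 5.87 in hPFE. In hAFE against hDE, BCAM was the 1 gain of 11, against 1.16% of all genes, and 4 of 29 lost H3K27ac (COL4A3, COL4A4, TNC and LIMS2), against 12.5%. In hPFE against hAFE 0 of 13 gained and 0 of 16 lost it, against 7.71% and 0.539%, and in hPFE against hESC 1 of 11 gained it (CD151), against 11.4%. H3K27me3 was lost in hDE against hESC by 7 of 16 (COL4A1, COL4A2, FN1, TNC, FBN1, TLN2 and PARVA), against 22.2% of all genes. COL4A1 and COL4A2 were each counted, whether or not they share a peak. In hPFE against hDE, 1 of 33 gained it (TNC), against 2.05%, and 3 of 11 lost it (FERMT1, TNS3 and CD151), against 16.3%.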

How the data were processed

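Peak lists from chromatin immunoprecipitation of H3K27ac, H3K27me3 and H3K4me2 in 21 of 25 samples were used; the 4 inputs enter only as the authors' controls. The deposited file names record that the authors removed duplicates, sorted the alignments and called each library separately with the stage's input as control, at a p threshold of 0.01 and with a cap of 500 K peaks. The submitters' processing notes name hg38 as the build. Which aligner and caller were used is not given in the sources used here. For each peak the deposited lists hold a score, a fold enrichment (the ratio to input), and the −log10 of a p and of a q, as the authors computed them. The fold describes a peak and the deposited −log10 p ranks or filters peaks within 1 list; the score and −log10 q were not used for any result.

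Overlapping peaks of 1 library were merged on chromosomes 1 to 22, X and Y with Python 3.11.15, pandas 2.3.3 and numpy 2.4.6, and drawn with matplotlib 3.10.9. The gene table (GRCh38.p14) gives no strand, so both annotated ends were used; strand and start come from the RefSeq promoter table, which has no entry for 12 members, among them ITGA3, ITGA7, ITGA9, ITGAD, ITGAL, ITGAX, ITGB2, ITGB3, ITGB4, LAMA1 and LAMC3. In 12 members another gene's end lies inside a window, and in 9 of these it is protein-coding. The overlap code was tested on simulated data. Alternatives were peaks with −log10 p of 5 or more, equal list lengths, a 2.5 kb window, a 200 bp overlap, the 5′ end alone, and each library left out. Replicate 1 of H3K27me3 in hESC, hDE and hPFE carries the word millipore in its file name; whether this names a different antibody is not stated. Named members were those that gained or lost a mark, carried H3K27ac at every stage or carried no mark, and the remaining members are given by role; of the 44 adhesion partners, those that gained or lost H3K27ac. The members and lists were chosen with earlier results of these data known. The values of 1 member are not reported here, although it is included in the counts.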

Additional observations from a re-analysis of the deposited data

How the results depend on the processing

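No paired analysis was possible because the results come from counts of peak calls and from no test. Of 156 counts under named alternatives 97 stayed within 1.5 times, and of 148 single-gene calls 80 were kept and 0 reversed; a library left out loosens the rule by construction, and all 128 calls were then kept. With −log10 p of 5 or more, members marked by H3K27ac numbered 7 in hAFE and 8 in hPFE. H3K27ac gains were 2 (hDE against hESC), 0 (hAFE against hDE), 0 (hPFE against hAFE) and 1 (hPFE against hESC), and losses 0 and 0 in the first 2 contrasts. H3K27me3 gains were 1 (hDE against hESC), 4 (hPFE against hDE) and 1 (hPFE against hESC), H3K4me2 gains 0 and losses 2, and members with a body region 10 in hESC and 9 in hAFE. With equal list lengths, H3K27ac marked 8 in hDE and 7 in hPFE. Gains were then 1 in hDE against hESC, 0 in hPFE against hAFE and 1 in hPFE against hESC, losses 0, 0, 1 and 1 in hDE against hESC, hAFE against hDE, hPFE against hAFE and hPFE against hESC, and H3K27me3 gains 4 in hPFE against hDE. Members with a body region were 9 in hESC, 16 in hDE and 14 in hPFE, and those with more regions 4 (hAFE against hDE), 2 (hPFE against hAFE) and 6 (hPFE against hESC). With a 2.5 kb window, H3K27ac gains were 0 (hAFE against hDE), 2 (hPFE against hAFE) and 5 (hPFE against hESC), and H3K27me3 losses 3 (hPFE against hESC). With a 200 bp overlap, H3K27ac gains were 2 (hDE against hESC) and 0 (hAFE against hDE), losses 0 and 0, H3K27me3 gains 0 (hDE against hESC) and 1 (hPFE against hDE), and H3K4me2 gains and losses 0 and 0. The 5′ end setting runs on 27 members: H3K27ac marked 9 in hDE and in hPFE, H3K27me3 7, 6, 5 and 6 at the 4 stages, and H3K4me2 17 in hESC, hAFE and hPFE. Gains of H3K27ac were 1 (hDE against hESC) and 0 (hPFE against hAFE), losses 0 (hAFE against hDE), H3K27me3 gains 1 (hDE against hESC) and losses 3 (hPFE against hESC), and H3K4me2 gains 0 and losses 0. With 1 library left out, hESC H3K27ac marks ranged from 10 to 13 (13 without replicate 1). H3K27ac gains in hDE against hESC ranged from 4 to 7 (7 without hESC replicate 2 or hDE replicate 1) and losses from 1 to 2 (2 without hESC replicate 2). Losses in hAFE against hDE ranged from 3 to 7 (7 without hDE replicate 1, 5 without hAFE replicate 1), and gains in hPFE against hAFE from 1 to 4 (4 without either hPFE library, 3 without hAFE replicate 1). In hPFE against hESC gains ranged from 4 to 6 (6 without hESC replicate 2, 5 without either hPFE library) and losses from 0 to 1 (1 without hESC replicate 1 or hPFE replicate 2). H3K27me3 losses in hDE against hESC ranged from 3 to 5 and gains in hPFE against hDE from 2 to 4, both highest without hDE replicate 2. H3K4me2 gains ranged from 1 to 2 (2 without hDE replicate 1) and losses from 2 to 3 (3 without hESC replicate 1 or hDE replicate 2). Members with a body region in hAFE ranged from 15 to 23 (23 without replicate 2). Counts of members with more regions, whose alternatives were chosen after seeing the data, ranged from 15 to 20 in hDE against hESC (20 without hDE replicate 1), from 2 to 4 in hAFE against hDE (4 without hAFE replicate 2) and from 13 to 26 in hPFE against hESC (26 without hPFE replicate 1). The causes of these shifts were not tested. Sequencing depth is unknown and limits what a missing peak can show, above all for hAFE H3K27ac.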
